A study of Mus musculus with 2 samples.

Results

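Mir22 is the gene of the microRNA miR-22, a regulator of heart muscle growth, and it is described here in embryonic mouse heart. It was taken as the row of the count tables whose Ensembl identifier, ENSMUSG00000065529.1, maps to Mir22, so it is 1 of 1973 counted miRNA genes. Both libraries were small RNA libraries (fragments under 30 nt) from hearts of healthy B6NCrl embryos at day 11.5, with both sexes pooled. They were labelled as biological replicates 1 and 2 of a single untreated group, and replicate 1 pooled 109 embryos. The number pooled for replicate 2 is not given in the labels. Values are averages over the cell types of the tissue, and fewer cells of a type cannot be told apart from less RNA per cell. Litters are not named in the labels, so the spread between replicates may be partly technical.

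A microRNA is cut from a hairpin in a longer transcript and then guides an Argonaute protein to messenger RNAs that pair with its seed, the bases near its 5′ end, which lowers their stability and translation. In heart, miR-22 is known as an abundant microRNA of cardiomyocytes and smooth muscle. In adult mice it promotes hypertrophy, the growth of heart muscle cells under load, and known targets include Hdac4, Sirt1 and Purb. The tables measured microRNAs only, so the levels of these targets were not analysed here.

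The hairpin and both mature arms are shown because they define which reads count as Mir22. The hairpin, of 95 bases, lies at chr11:75463716-75463810 on the plus strand (GRCm38, also called mm10), and its capitals mark the 3p arm. In the mature arms capitals mark the seed, bases 2 to 8. All sequences in this paragraph are from RefSeq on GRCm38.p6.
Mir22 hairpin: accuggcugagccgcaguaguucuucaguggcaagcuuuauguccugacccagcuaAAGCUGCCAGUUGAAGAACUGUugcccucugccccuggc
miR-22-5p: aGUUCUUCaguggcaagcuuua
miR-22-3p: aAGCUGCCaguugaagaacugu

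The 5p arm covers positions 19 to 40 of the hairpin and the 3p arm positions 57 to 78, with 16 bases between them. In the minimum free energy structure computed with RNAfold (-41.9 kcal/mol), 19 of the 22 bases of the 3p arm paired with the 5p arm. The 3p arm is the one commonly called miR-22. The tables give 1 count per hairpin, so the shares of the arms were not measured.

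No other mature miRNA of the reference table (1679 names) had the seed of miR-22-3p, and none had that of miR-22-5p. A looser comparison over bases 2 to 7 also found no partner for the 3p arm, and 2 for the 5p arm, miR-6935-3p and miR-7092-3p. No run of 20 bases, and none of 15, was shared between the Mir22 hairpin and any other of 1005 gene symbols with a hairpin in the table. Mir22 therefore stood alone by seed and by hairpin sequence in this table. A genome sequence was not used here, so copies outside annotated hairpins and transcripts were not searched for.

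Mir22 lies inside an exon of a long non-coding RNA, not in an intron. Its hairpin begins 23 bases into exon 2 of Mir22hg (ENSMUSG00000085148.1, chr11:75461539-75466676, plus strand), the gene named as its host. Both annotated Mir22hg transcripts, one with 2 exons and one with 3, hold the hairpin in an exon that begins at the same base; it is 337 bases long in the first and 165 in the second. Exon 2 of a non-coding transcript of Tlcd2, a gene on the same strand whose span overlaps that of Mir22hg, also holds the hairpin. Which of these transcripts gave the Mir22 reads was not tested. Both protein-coding transcripts of Tlcd2 begin beyond the hairpin, at position 75468079. In GENCODE M21 transcripts, the full miR-22-3p sequence was found in Mir22, Mir22hg and Tlcd2 and in no other gene. The table of counts holds only miRNA genes, so Mir22hg and Tlcd2 have no value here.

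**Figure D1:**
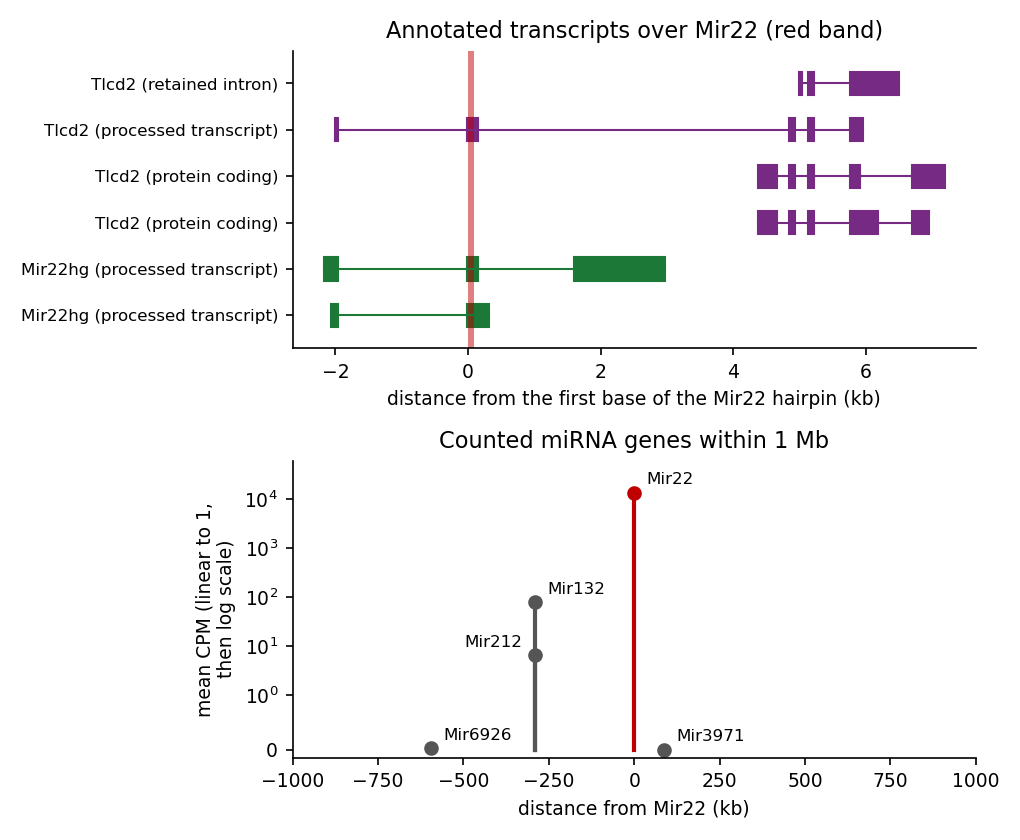
Top, annotated transcripts over the Mir22 hairpin, with exons as boxes and distance from the first base of the hairpin in kb on the horizontal axis. Bottom, mean CPM of every counted miRNA gene within 1 Mb, on an axis that is linear up to 1 CPM and logarithmic above. Mir22 stood at 13378 CPM, against 79.1 CPM for Mir132 and 6.59 CPM for Mir212.

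Mir22 was read 241355 times in replicate 1 and 27609 times in replicate 2. Own-strand counts on all miRNA genes totalled 18467499 and 2017294, so the first library was 9.15-fold deeper. Scaled so that each of these totals comes to 1000000 (CPM), the level of Mir22 was 13069 CPM in replicate 1 and, in replicate 2, 13686 CPM, with a mean of 13378 ± 436 CPM (SD, n = 2). That is 1 read in 77 and 1 read in 73 of the miRNA reads. As shares, 1.31% of miRNA counts in replicate 1 (exact 95% Clopper-Pearson interval 1.302 to 1.312%) and 1.37% in replicate 2 (1.353 to 1.385%) came from Mir22. The intervals did not overlap. They hold for counting error alone, because the reads carried no molecular identifiers to show which are copies of 1 molecule. A mature miRNA is read whole, so levels were not scaled by length.

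Mir22 ranked 18 in replicate 1 and 17 in replicate 2. It was among 20 genes at 10000 CPM or more in both libraries and 85 at 1000 CPM or more. Of 419 genes detected (at least 1 CPM in both libraries), 95.7% lay below it. Multimapping reads, 20.8% and 24.1% of all reads in replicates 1 and 2, stand on no gene by the layout of the tables. Some miRNAs, such as Mir378a, have no row. Ranks and shares of Mir22 thus hold for reads counted on genes with a row. The median of the detected genes was 84.1 CPM in the first library and 76.3 CPM in the second, so Mir22 exceeded the median gene 155-fold and 179-fold.

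**Figure D2:**
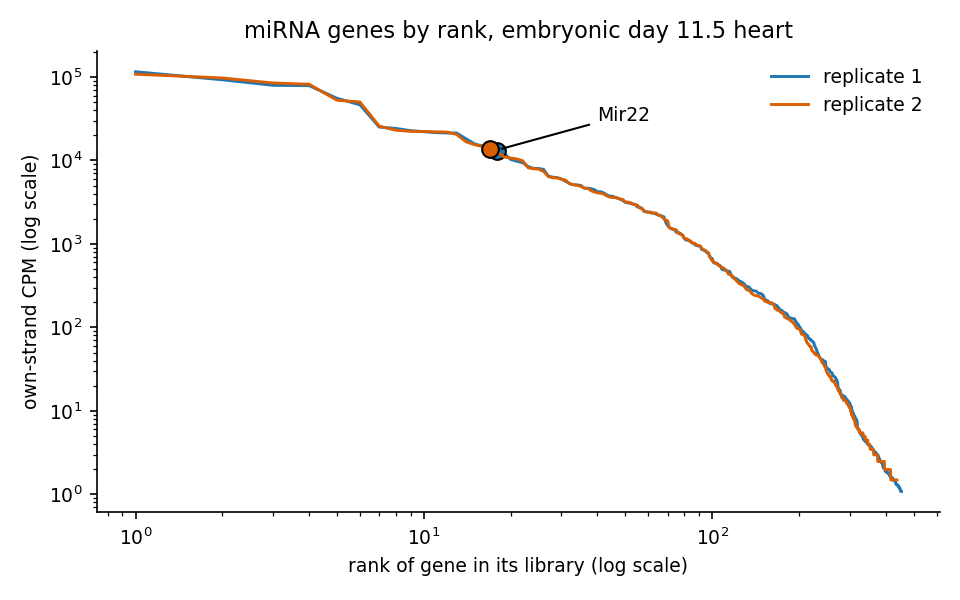
Own-strand CPM (log scale) of miRNA genes against their rank in the same library (log scale), for genes at 1 CPM or more, with 1 line per replicate and Mir22 as circled points. The lines lie close together, and Mir22 sits at rank 18 in replicate 1 and rank 17 in replicate 2.

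All of these reads lay on the strand of Mir22. The opposite strand held 0 counts in both libraries, which allows a share of up to 0.00124% of the reads at this locus in replicate 1 and 0.0109% in replicate 2. This was common among abundant genes: 11 of the 20 most abundant, and 65 of the 85 genes at 1000 CPM or more, had no opposite-strand read in either library. Counting both strands thus left the Mir22 count as it was and enlarged only the total, which lowered its share to 1.28%.

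The genes next to Mir22 in the order of levels were compared with it by their spread. Mirlet7i, a member of the let-7 family of differentiation-associated miRNAs, stood just above it, at 14833 CPM in the first library and 12533 CPM in the second. These values enclosed those of Mir22, so the order of the pair was not larger than the spread. Mir23b, of a miRNA cluster known from vascular cells, stood at 14183 and 14691 CPM, above both values of Mir22. Mir652 stood higher, at 15795 and 15464 CPM. Below Mir22 came Mir351 at 12083 and 10693 CPM, Mir208a at 10261 and 11000 CPM and Mir30a at 9814 and 10420 CPM. None of these 3 reached the lower value of Mir22. Likeness was measured as the distance in log2 CPM over the 2 libraries. The nearest detected genes were Mir23b (distance 0.16), Mirlet7i (0.22), Mir652 (0.33), Mir351 (0.37) and Mir208a (0.47). With 2 libraries of a single group, this measures likeness of level and says little of likeness in pattern.

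The libraries differed little in Mir22. Its CPM was 1.05-fold higher in replicate 2 (exact 95% binomial interval 1.03 to 1.06, log2 ratio 0.07). The two-sided exact binomial test, fitted over the 419 detected genes, gave a Benjamini-Hochberg adjusted p of 5.48e-12 for Mir22. This test compares 2 libraries and not conditions, and allows for counting error alone. With 2 libraries, no exact test across replicates can go below a two-sided p of 0.5. At an adjusted p under 0.05 and at least 2-fold, Mir22 was not called, beside 2.63% of detected genes (11 of 419) that were. Without the fold minimum it passed, as 29.4% of detected genes did (123 of 419), of which 60 were higher in replicate 2. That call was lost when edgeR's exact test was run with the common dispersion, where the adjusted p of Mir22 was 1. The dispersion came from the same 2 libraries taken as a single group, so their difference is part of the noise it is tested against. Calls by edgeR here are therefore no independent check. Over all alternatives the adjusted p ranged from 2.59e-90 to 1.

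Against the spread over genes the difference in Mir22 was small. The median detected gene differed 1.11-fold between the libraries in either direction, and 110 of 419 genes differed less than Mir22. Among the 85 genes at 1000 CPM or more the median was 1.05-fold, and 40 of them differed less. Mir22 thus lay near the middle of the abundant genes by this measure. The common biological coefficient of variation, estimated with edgeR over detected genes of all levels, was 17.6%. The CPM of Mir22 had a coefficient of variation of 3.26%, which is a different measure and is not compared with it.

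**Figure D3:**
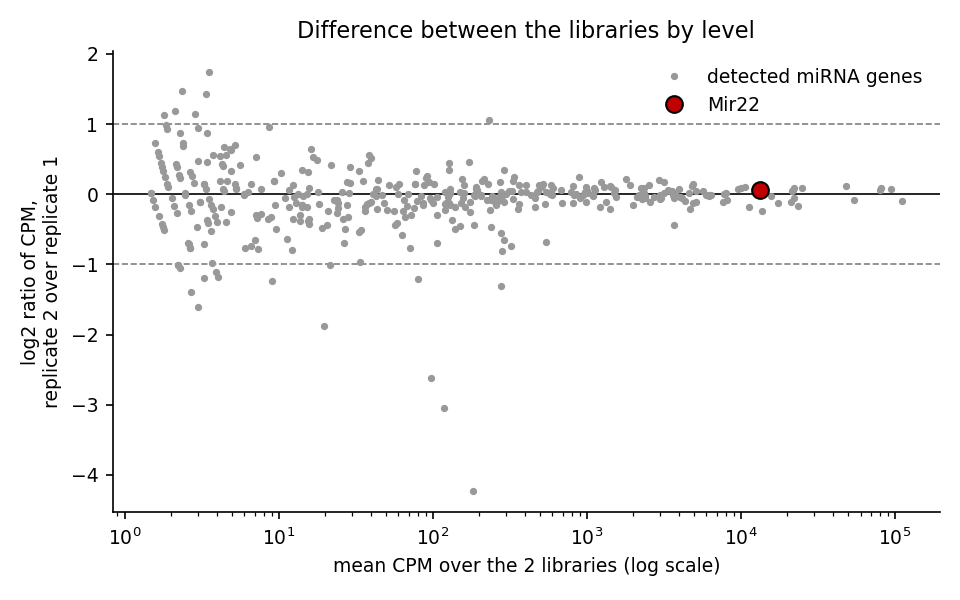
Log2 ratio of CPM, replicate 2 over replicate 1, against mean CPM (log scale) for the 419 detected miRNA genes (grey points), with Mir22 in red and dashed lines at 2-fold. Mir22 lies at a log2 ratio of 0.07, in the range of levels where the points scatter least.

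Mir22 was then set against 12 other miRNA genes, most with known roles in heart or vessels, as the ratio of counts within each library. A ratio had to point the same way in both libraries, with exact binomial intervals clear of equality in each and a mean larger than its SD, to count as larger than the spread. All 12 ratios did, with Mir22 higher than 5 genes and lower than 7. The intervals hold for counting error alone and each SD rests on 2 libraries, so this describes the order of counts in these libraries. Another gene chosen for comparison, Mir378a, has no row of its own and gave no ratio. Such ratios compare counts and not amounts of RNA, because miRNAs differ in how well they are captured in a library.

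The first group was the myomiRs, which lie in introns of myosin heavy chain genes and are expressed in cardiomyocytes. Mir208b, in the gene of the fetal β-myosin, exceeded Mir22 3.61-fold (log2 ratio of Mir22 to Mir208b -1.85 ± 0.03). Mir208a, in the gene of α-myosin, was lower than Mir22, by 1.26-fold (log2 ratio of Mir22 to Mir208a 0.35 in the first library and 0.32 in the second). Mir499, at 1663 and 1926 CPM, lay 7.47-fold below Mir22 (log2 ratio 2.90 ± 0.10). The level of Mir22 thus fell between those of Mir208b and Mir208a.

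Among other miRNAs known to promote hypertrophy, Mir21a, a miRNA of growth and fibrosis, stood at 21335 and 22209 CPM and exceeded Mir22 1.63-fold. Mir23a, a target of the hypertrophic transcription factor NFAT, stood at 21280 and 22011 CPM, 1.62-fold above Mir22. The log2 ratios of Mir22 to these genes were steady, at -0.70 ± 0.01 for Mir21a and -0.69 ± 0.01 for Mir23a. Mir195a, of the cell cycle family miR-15, lay 24.7-fold below Mir22, at 535 and 546 CPM.

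Mir132 and Mir212 share a transcript, promote hypertrophy by lowering Foxo3, and are the detected miRNA neighbours of Mir22 on chromosome 11, about 290 kb away on the same strand. Mir132 (chr11:75173682-75173747) was read 1513 and 154 times, or 81.9 and 76.3 CPM. Mir212 (chr11:75173388-75173478) was read 152 and 10 times, or 8.23 and 4.96 CPM. Mir22 exceeded Mir132 169-fold (log2 ratio 7.40 ± 0.12) and Mir212 2094-fold (11.03 ± 0.56), and the second ratio rests on 10 reads in replicate 2. The other counted genes within 1 Mb were Mir6926, with 1 read in replicate 1 and 0 in replicate 2, and Mir3971, with 0 in both. A count of 0 allows up to 0.162 CPM in replicate 1 and 1.49 CPM in replicate 2. Mir22 supplied 99.4% of the own-strand CPM of this window.

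The last group held the remaining compared genes, Mir26b, Mir30e, Mir126a and Mir335. Mir26b and Mir30e, of families known to restrain hypertrophy and fibrosis, exceeded Mir22 1.77-fold and 1.87-fold. Mir26b was the less steady, with a log2 ratio of Mir22 to Mir26b of -0.94 in the first library and -0.71 in the second. The endothelial Mir126a exceeded Mir22 6.14-fold (log2 ratio -2.62 ± 0.02). Mir335, from the imprinted gene Mest and the most abundant gene of both libraries, exceeded it 8.36-fold (-3.06 ± 0.12).

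**Figure D4:**
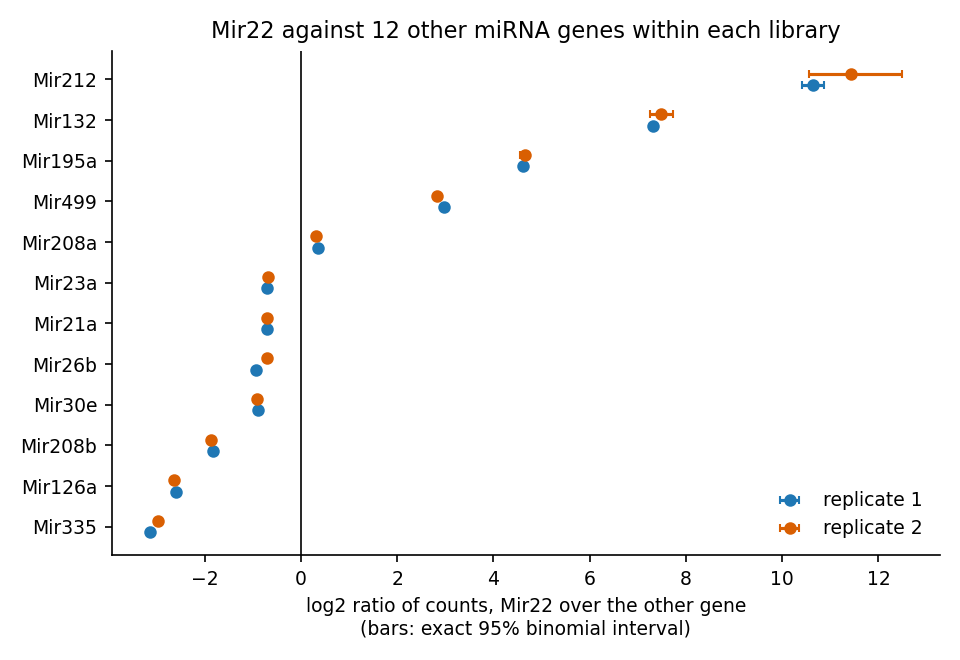
Log2 ratio of counts, Mir22 over each of 12 other miRNA genes, in replicate 1 and replicate 2, with exact 95% binomial intervals as bars that are often smaller than the points. Mir22 was higher than the 5 genes to the right of 0 and lower than the 7 to the left, and the replicates lie close together except at Mir212.

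Mir22 was next placed among lists of miRNAs by known role. The growth promoting list held 17 miRNA genes known to promote cardiomyocyte hypertrophy. All 17 were detected, and 3 members stood above Mir22, namely Mir208b, Mir21a and Mir23a. It held 10.7% of the list's summed CPM. The median of the detected members was 541 CPM, against 80.5 CPM over all detected genes. The lowest was Mir199a-1 at 2.81 CPM, one of 3 detected members whose mature sequence occurs in another hairpin. By the layout of the tables, a read mapping to several places stands on no gene, so the values of such members are uncertain. Between the libraries, 7 members were higher and 1 lower in replicate 2 by the exact binomial test without a fold minimum, and 9 did not pass. That is 8 of 17, against 29.4% over all detected genes. Smaller differences pass this test in genes with more reads. The median level of the list was higher than that over all detected genes, so these shares are not comparable. At 2-fold 0 were called, against 2.63%, and edgeR's exact test called 0 of the 17 and 5 of all 419 genes.

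The growth restraining list held 22 miRNA genes known to restrain hypertrophy or fibrosis, of which 20 had a row and 18 were detected. Mir22 lay below Mir30e and Mir26b and above the other 16. Of the 18, however, 7 share a mature sequence with another locus or have a symbol that marks several loci. All 7 lay below Mir22 by counts, and their values are uncertain. Next below it were Mir30a at 10117 ± 429 CPM and Mir30d at 5165 ± 107 CPM, both of the miR-30 family, which targets the profibrotic factor CTGF. The muscle miRNA genes Mir1a-1 and Mir133a-1 stood at 2.23 and 3.54 CPM, from 3 and 11 reads in replicate 2. Their mature sequences are known from more than 1 locus, so these values cannot stand for the muscle miRNAs themselves, and no ratio to Mir22 is given. Mir133a-1 was the 1 member of this list called between the libraries at 2-fold by the exact binomial test, against 2.63% of all detected genes. Without a fold minimum 7 of the 18 were higher and 2 lower in replicate 2, against 29.4% of all detected genes in either direction. The median of the detected members was 166 CPM, against 80.5 CPM over all detected genes, so these shares are not comparable either. In this list edgeR's exact test called 0. Mir378a and Mir1a-2 have no row of their own. The strand on which Mir378a lies held 27418 CPM at Gm25301, 2.05-fold the level of Mir22. The place of Mir22 in this list thus holds only for reads counted on members with a row.

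The last list held miRNAs known to target the deacetylases Hdac4, a repressor of the muscle transcription factor MEF2, or Sirt1. Of 14 listed genes 12 were detected, and Mir22 was the highest, with 70.9% of the summed CPM. The next were Mir140 at 3990 ± 140 CPM, Mir181a-1 at 992 ± 52 CPM and Mir34a, a miRNA induced by p53, at 208 ± 19 CPM. Mir22 lay above every other detected member. Of these 11, however, 6 share a mature sequence with another locus or have a symbol that marks several loci, and are uncertain. The muscle miRNA Mir206, another known regulator of Hdac4, stood at 57.1 ± 12 CPM.

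**Figure D5:**
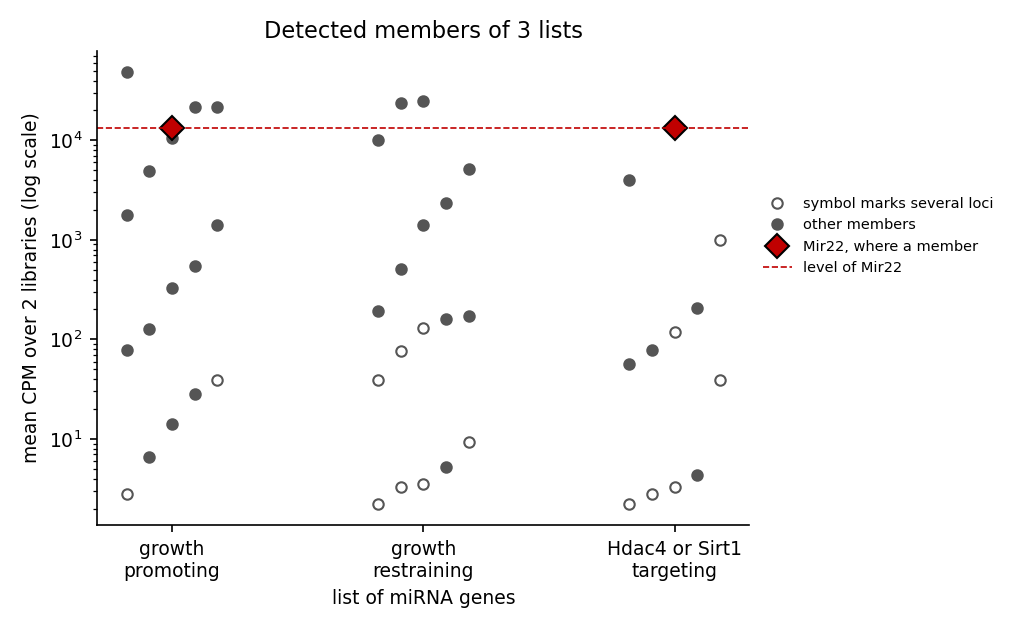
Mean CPM over the 2 libraries (log scale) of the detected members of 3 lists, with open circles for genes whose symbol marks several loci and a red diamond for Mir22 where it is a member. The dashed line at 13378 CPM is the level of Mir22; 3 members of the growth promoting list and 2 of the growth restraining list lie above it.

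The sites that the miR-22-3p seed could pair with are shown for known targets, as reference sequence and not as a measurement. The 3′ UTR of each gene was taken from its GENCODE M21 protein-coding transcript with the longest one, on the transcript strand. The letters searched were GGCAGCT, the match to bases 2 to 8, and GGCAGCTA, which adds an A opposite base 1 and holds the first motif. The first was present in 12.8% of 21028 3′ UTRs and the second in 1.95%. Capitals mark the match in the 22 bases printed for each gene. The Sirt1 site lies at chr10:63320154-63320175 on the minus strand, that of Hdac4 at chr1:91929849-91929870 on the minus strand, and that of Purb at chr11:6472741-6472762 on the minus strand.
Sirt1: tttccaaaacttgtGGCAGCTA
Hdac4: tgcacgccaaactcGGCAGCTt
Purb: attttgtactacaaGGCAGCTg

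Sirt1 held 1 match with the added A. Hdac4 held 1 match without it, and Purb, a repressor of muscle gene transcription, held 2, of which the one farther from the stop codon is printed. Tet2 and Cdk6 held 1 match each, and Esr1 held 2. Long 3′ UTRs hold more such letters. Among 3′ UTRs of 0.8 to 1.2 times the length of that of Purb, 44.9% had a match, against 16.3% for that of Sirt1. By the same measure the share was 31.2% for Hdac4, 24.6% for Tet2, 55.2% for Cdk6 and 29.6% for Esr1. A match describes the sequence and does not show that the site is used in these hearts.

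By position in the genome, Mir22 was 1 of 54 detected genes (12.9% of 419) that overlap an exon of a non-coding host on the same strand. By mean level 2 stood above it, Mir17 in Mir17hg at 21312 ± 1147 CPM and Mirlet7i in D630033A02Rik, whose order with Mir22 was not larger than the spread. The median of these 54 genes was 174 CPM. It was 50.4 CPM for 182 genes in an intron of a host, 11.1 CPM for 53 in an exon of a coding host and 135 CPM for 130 outside annotated same-strand genes. A gene in exons of both kinds of host was placed with the non-coding hosts. Mir22 was such a gene, as a transcript of the coding gene Tlcd2 also holds it in an exon. Genes of 1 cluster share a transcript and are not independent, so these medians are given as a description.

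The tissue label was checked against marker miRNAs of cell types. The cardiomyocyte markers Mir208a, Mir208b and Mir499 were all detected and summed to 58391 CPM in replicate 1 and 63138 CPM in replicate 2. The smooth muscle markers summed to 93726 and 98626 CPM and the endothelial marker stood at 79505 and 84700 CPM. Each of these sums was higher in replicate 2, as Mir22 was; their part in the difference of Mir22 was not tested. Other tissues' markers were lower, with erythroid markers at 995 and 983 CPM, epithelial markers at 1324 and 831 CPM and the liver marker at 395 and 160 CPM. Of 5 counted neural markers 0 were detected, and these have several loci. Which cells of the heart hold the Mir22 reads was not tested.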

How the data were processed

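Raw counts of reads on each miRNA gene were deposited by the authors, made on build mm10 with GENCODE M4, per the file headers in the notes beside the tables. The sources used here name neither the aligner nor the counting tool. From their layout and sums, the 3 unlabelled count columns were taken as both strands, own strand and opposite strand. Own-strand counts were used. Summary rows were left out of totals: 38.4% and 27.5% of reads were unmapped and 20.8% and 24.1% multimapping in replicates 1 and 2. By ID, 1894 of 1973 genes matched GENCODE M21 on the same build, which gave symbols and coordinates.

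CPM, intervals and exact binomial tests were computed with Python 3.11.15 and scipy 1.17.1. edgeR 4.0.16 gave the dispersion, TMM factors and an exact test at the common dispersion; DESeq2 1.42.0 gave size factors, and RNAfold 2.7.2 the structure. The library test was checked on simulated counts that held counting error alone. That check does not cover spread between replicates beyond counting error. Alternatives covered the strand, denominator, detection limit, library scaling and each replicate.

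Mir22, the lists and the compared genes were chosen with earlier results of these data known. Genes named were Mir22, the compared genes, its neighbours within 1 Mb, the 3 genes on each side of it in level, the 5 nearest in log2 CPM, and members illustrating each list from its 4 highest; Mir17, Mir199a-1, Mir1a-1, Mir133a-1 and Mir206 were named after their values were seen. One list and some known targets of miR-22 are not reported here.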

Additional observations from a re-analysis of the deposited data

Results flagged for a closer look

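The opposite-strand counts entered the main comparisons nowhere and were used only when both strands were counted. At 2 places where a listed miRNA without a row lies, they exceeded the limit that a count of 0 allows. Mir378a, of the growth restraining list, lies opposite Gm25301, where that strand held 27572 and 27263 CPM in replicates 1 and 2, with a mean of 27418 CPM and 2.05-fold the level of Mir22. Mir1a-2 lies opposite Mir1b, where it held 143 and 14 counts, a mean of 7.34 CPM.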

How the results depend on the processing

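Counting both strands gave Mir22 12771 CPM and 1.28%, through a larger total. Its rank was then 19, since the opposite-strand reads at Gm25301, 509192 and 54998 in replicates 1 and 2, entered the order above it. Without the 10 most abundant genes in the total it was 30755 CPM, and per 1000000 uniquely placed reads 10977 CPM. TMM and DESeq2 scaling moved it by less than the SD. With each replicate left out in turn, the level ranged from 13069 to 13686 CPM, the share from 1.31 to 1.37% and the rank from 17 to 18. The ratio between the libraries kept its direction in each alternative run and was not called in any. It was largest, at 1.14, per 1000000 uniquely placed reads. For Mir22, edgeR's exact test gave an adjusted p of 1. Genes called at 2-fold numbered 11, 7 when 10 CPM was required and 5 by edgeR's exact test. All 12 ratios to other genes kept their direction and stayed larger than the spread with both strands. Without either replicate the direction held too, and the interval excluded equality. The place of Mir22 in each of the 3 lists was the same at 10 CPM and without members of several loci by symbol. It was also the same without these and those sharing a mature sequence, a setting chosen after seeing the data. All members left out lay below Mir22 by counts, so these settings could not move its place. They do not test whether members of uncertain value would lie above Mir22. No paired analysis was possible because there was 1 group. Depth limits the ratio to Mir212, which had 10 reads in replicate 2.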
